A study of Mus musculus with 6 samples.

Results

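Axon guidance ligands and receptors were examined in T1 and T2 cells, a pair of tumor cell populations of the 4T1 model of triple negative breast cancer. The genes were taken by symbol from the table of normalized counts as the semaphorins, plexins, neuropilins, netrins, UNC5 receptors, Slits, Robos, ephrins and Eph receptors, together with Dcc and Neo1. This gave 72 of the 24129 gene names in the table. Of these, 17 had no read in any library, and 42 reached the minimum for comparison, a mean over all 6 libraries of 10 normalized counts. The remaining 30, silent ones included, reached at most 13 in a library. Of the matched names, 2 are not guidance genes in their own right. Plxna4os1 is an antisense RNA of Plxna4 and Unc5cl encodes a protein that resembles UNC5 receptors, and neither had a read.

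Both populations descended from 4T1GFP cells, a mouse mammary carcinoma line carrying green fluorescent protein, which had been injected into the mammary fat pad of BALB/c mice. T1 cells (labelled 4T1A, 3 replicates) had low GFP, grew adherent with epithelial morphology and were described as aggressive, while T2 cells (labelled 4T1NA, 3 replicates) were the GFP high cells, round, loosely attached and less aggressive. They arose as tumor cells that had outgrown a culture of sorted fibroblasts and were separated by a further sort on GFP, so each is 1 sorted culture, and the sources do not say from how many cells it grew. RNA was taken from cells kept in the same medium (DMEM/F-12 with serum), with no treatment named in the labels. The parental 4T1GFP line was not analysed here. The labels do not tell separate cultures from repeat preparations. The p-values weigh each difference against the spread between these libraries and do not reach beyond these sorted cultures.

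Semaphorins, netrins, Slits and ephrins are cues that steer growing axons and migrating cells, mostly by reorganising the cytoskeleton on the side of the cell that meets them. Semaphorins signal through plexins, with neuropilins as coreceptors for the secreted class 3 members, netrins act through DCC, neogenin and UNC5 receptors, and Slits act through Robo receptors. Ephrins are anchored in the membrane and bind Eph receptor tyrosine kinases on a neighbouring cell, so that both cells can respond. In the mammary gland these families are known for keeping epithelial layers together and for shaping ducts, and in tumors for effects on invasion and blood vessels.

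T1 and T2 cells differed in 27 of the 42 genes (64.3%) when an adjusted p below 0.01 was required, while 49.5% of all 11514 genes compared did so (limma, Benjamini-Hochberg adjustment over all of them). More of them were lower than higher in T1 cells. At this threshold 21 were lower in T1 cells (50%, where the share over all genes was 24.4%) and 6 were higher (14.3%, against 25.1%). The median log2 fold change of the 42 genes was -0.51, and that of all genes compared was -0.0055. The methods of the study also name a log2 fold change above 2, from DESeq2. Here that cutoff was applied to limma fold changes in either direction. Past both filters, 4 genes were higher in T1 cells (Ntn1, Ephb3, Epha8 and Nrp1), 9.52% against 4.17% of all genes. Lower in T1 cells were 7 (Sema6d, Sema3a, Robo1, Sema7a, Sema4c, Sema3b and Plxna3), 16.7% against 4.2% of all genes. These 11 genes were 26.2% of those compared, against 8.37% of all genes. The libraries of T1 and T2 cells did not overlap for 32 of the 42 genes, with T1 above T2 in 7 (34.2% of all genes had this order) and T1 below T2 in 25 (33.9% of all genes). Fold changes are T1 against T2 on the scale of log2(normalized count + 1), on which changes of genes near 0 come out too small. As RNA was pooled over many cells, a lower level in a population can come from fewer expressing cells or from less RNA in each, which cannot be told apart. Exons of Sema4c, Plxna1, Plxnb1, Efna3, Efna4, Epha1 and Ephb4 overlap annotated transcripts on the other strand, and without strand information reads of the overlap cannot be assigned to either.

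**Figure D1:**
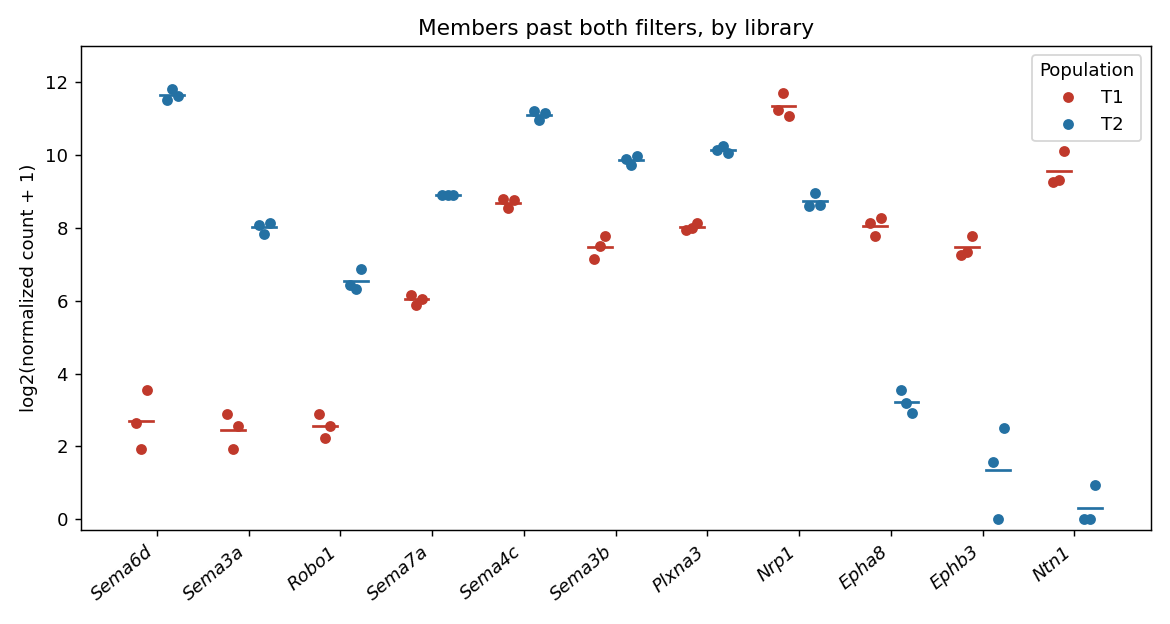
Level of the 11 genes past both filters, as log2(normalized count + 1) on the vertical axis, with 1 point per library (T1 red, T2 blue, 3 each) and a line at each mean. Sema6d and Ntn1 lie at the ends with fold changes of -8.95 and 9.24. The points of T1 and T2 cells overlap in none of the 11 genes, which were chosen for their difference between these same libraries. Of all genes compared, 68.1% did not overlap.

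In the GRCm38 annotation (GENCODE M21, strand in parentheses) the 4 genes with higher levels in T1 cells are the protein-coding genes Ntn1 at chr11:68209364-68400823 (minus), Ephb3 at chr16:21204755-21223305 (plus), Epha8 at chr4:136929419-136956816 (minus) and Nrp1 at chr8:128358604-128503363 (plus). Those lower in T1 cells are Sema6d at chr2:124089969-124667770 (plus), Sema3a at chr5:13125414-13602565 (plus), Robo1 at chr16:72308306-73046095 (plus), Sema7a at chr9:57940112-57962865 (plus), Sema4c at chr1:36548639-36558349 (minus), Sema3b at chr9:107597674-107609229 (minus) and Plxna3 at chrX:74329066-74344689 (plus). All values are summed over exons.

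Semaphorins were the largest family, with 20 genes in the table, of which 15 could be compared. Among the 15, 11 were lower in T1 cells (73.3%, against 24.4% of all genes) and 1 was higher (6.67%, against 25.1%), while 3 did not pass the threshold. Their median log2 fold change was -1.85. Summed over the family and divided by the exonic length of each gene, T1 cells had 902.5 ± 43.7 and T2 cells 2398 ± 112 normalized counts per kilobase (SD, n = 3 each), a ratio of 2.66.

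Sema6d, a transmembrane semaphorin that binds plexin-A1, had the largest difference of the semaphorins. It had 5.29, 2.79 and 10.7 normalized counts in T1 replicates 1, 2 and 3, and 2940, 3615 and 3158 in the T2 replicates. It was thus close to absent in all T1 libraries, which held 5, 3 and 11 reads of it, and abundant in all T2 libraries. The log2 fold change was -8.95 (standard error 0.33, adjusted p = 1.41e-08, limma), and the ratio of reads between T2 and T1 cells, scaled by the size factors, was 518 (95% interval 331 to 860, exact binomial, counting error only).

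Sema3a, a secreted semaphorin that repels axons, had 6.35, 2.79 and 4.88 normalized counts in T1 libraries and 271, 228 and 279 in T2 libraries, a log2 fold change of -5.57 (adjusted p = 1.24e-07). Again the populations lay far apart, although its T2 level stayed well under that of Sema6d. Sema7a, which is tethered to the membrane by a lipid anchor, had 70.9, 58.6 and 65.4 in T1 and 476, 481 and 480 in T2 cells, a log2 fold change of -2.87 (adjusted p = 8.82e-08). Sema4c, a transmembrane ligand of plexin-B2, had 441, 370 and 434 in T1 and 2359, 1981 and 2289 in T2 cells (log2 fold change -2.41, adjusted p = 4.59e-08). Sema3b, a secreted semaphorin known as a candidate tumor suppressor, had 140, 181 and 221 in T1 and 956, 855 and 997 in T2 cells (log2 fold change -2.39, adjusted p = 8.17e-07). For these 3 genes both populations expressed the gene, with every T2 library above every T1 library.

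A further 6 semaphorins were lower in T1 cells without reaching a log2 fold change of 2. Sema5a had a log2 fold change of -1.91, which was beyond -2 without T1 replicate 3 (-2.22) or T2 replicate 1 (-2.02). Sema4b had -1.86, Sema3e, the ligand of plexin-D1, -1.42, and Sema6b -0.94, all with adjusted p-values of at most 9.39e-05 (limma). Sema6c and Sema4g were near the minimum for comparison, with means of 12.2 and 10.2 in T1 and 37.7 and 42.5 normalized counts in T2 cells. The log2 fold change of Sema6c was -1.58 (adjusted p = 0.000911, limma). The Sema4g difference (log2 fold change -1.85, adjusted p = 0.00168) was past the threshold with all libraries but not without T2 replicate 1 (adjusted p = 0.013) or T2 replicate 3 (adjusted p = 0.012). Without T2 replicate 2, the lowest T2 library for this gene, it passed both filters (log2 fold change -2.27, adjusted p = 0.000284).

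Sema4d was the exception, with 1072, 1025 and 1117 normalized counts in T1 libraries and 340, 386 and 329 in T2 libraries. This ligand of plexin-B1, also known from immune cells, was higher in all T1 libraries (log2 fold change 1.61, standard error 0.10, adjusted p = 5.52e-07). Sema3f, which acts through neuropilin-2, had 1629 ± 117 in T1 and 2030 ± 228 in T2 cells (SD, n = 3 each), with an adjusted p of 0.018 in limma and 0.00886 in DESeq2. The values of Sema4f (log2 fold change 0.59, 95% interval -0.39 to 1.56) and Sema6a (-0.32, interval -1.12 to 0.48) overlapped between the populations. Among the semaphorins with too few reads, Sema3d and Sema5b had none, while Sema3c, Sema3g and Sema4a reached at most 4.88 normalized counts.

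Which semaphorin led the family depended on the population. Per kilobase of exon, Sema3f was the highest in T1 cells at 313 normalized counts, followed by Sema4d at 139, and they made up 34.7% and 15.5% of the family level there (means of 3 libraries). In T2 cells Sema4c led at 481 per kilobase, ahead of Sema3f at 391, Sema4b at 378 and Sema6d at 307. The share of Sema4d in T2 cells was 1.91%. That of Sema6d was 12.8% in T2 cells and 0.0658% in T1 cells.

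**Figure D2:**
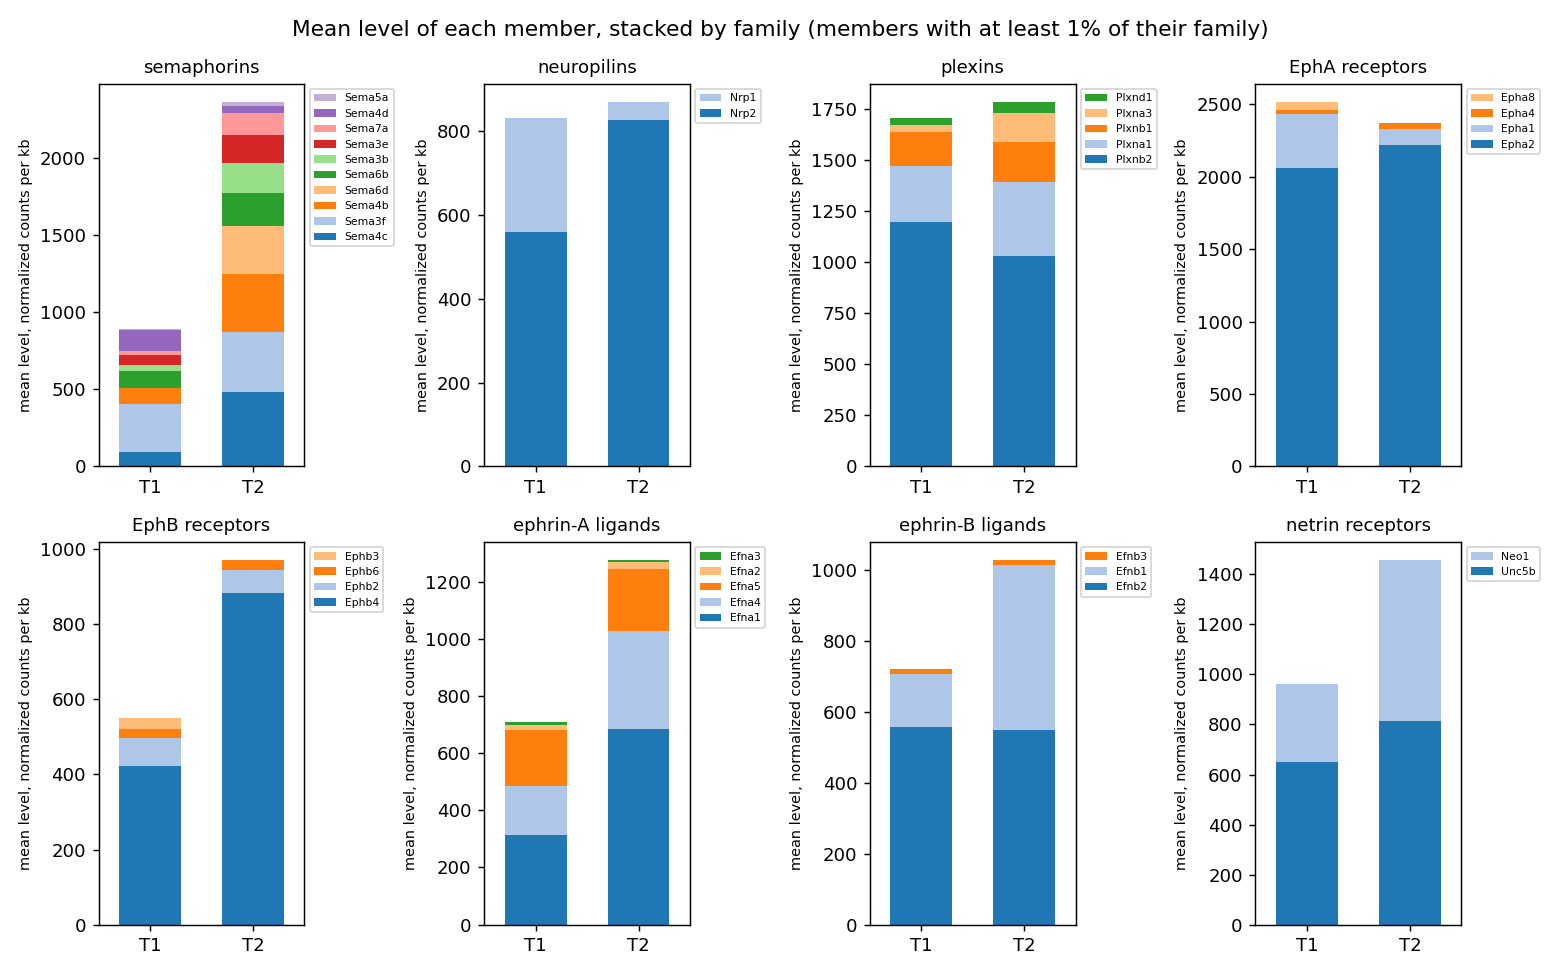
Mean level of each gene in normalized counts per kilobase of exon (vertical axis, starting at 0), stacked within 8 families for T1 and T2 cells, leaving out genes under 1% of their family in both populations. The semaphorin stack is taller in T2 cells (all semaphorins sum to 2398 there and to 902.5 in T1 cells), while the plexin stacks are close in height (1704 in T1 and 1785 in T2 cells).

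The summed levels of the semaphorin receptors overlapped between T1 and T2 libraries. Neuropilins are single-pass coreceptors that also bind vascular growth factors, and their sum per kilobase was 830 ± 73.2 in T1 and 869 ± 68.1 in T2 cells (SD, n = 3 each), with no separation of the libraries. The members within it went opposite ways. Nrp1 had 2439, 3368 and 2156 normalized counts in T1 and 387, 495 and 399 in T2 libraries, higher in every T1 library (log2 fold change 2.62, standard error 0.16, adjusted p = 3.9e-07). Nrp2 had 5884, 6209 and 7774 in T1 and 9420, 10622 and 9283 in T2 libraries and was lower in T1 cells (log2 fold change -0.57, adjusted p = 0.000946). Nrp1 therefore made up 32.7% ± 7.28 of the T1 neuropilin level per kilobase and 5.0% ± 0.304 of that of T2 cells (SD, n = 3 each).

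Of the 9 plexins, 5 could be compared, and Plxnb2 carried 70.1% of the family level in T1 cells and 57.7% in T2 cells. Plxnb2 had 8968, 9011 and 9704 normalized counts in T1 and 7964, 8292 and 7605 in T2 libraries, with every T1 library above every T2 library but an adjusted p of 0.0226 (log2 fold change 0.21, 95% interval 0.06 to 0.37). Only Plxna3 passed both filters, with 243, 253 and 280 in T1 and 1134, 1209 and 1057 in T2 libraries (log2 fold change -2.13, standard error 0.11, adjusted p = 1.02e-07). It is a plexin known for relaying class 3 semaphorins bound to neuropilins.

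Plxna1 and Plxnd1 were also lower in T1 cells, with log2 fold changes of -0.39 (adjusted p = 0.00598) and -0.82 (adjusted p = 0.00295). Neither call held throughout when libraries were left out in turn. Leaving out any library but T1 replicate 3 raised the adjusted p of Plxna1 above the threshold (0.0102 to 0.0285). That of Plxnd1 lay above it without T1 replicate 1, T1 replicate 2 or T2 replicate 3 (0.0113 to 0.0184). Over these fits the log2 fold change ran from -0.474 to -0.308 for Plxna1 and from -0.996 to -0.662 for Plxnd1. For Plxnb1 the values were 1622 ± 58.9 and 1874 ± 220 (SD, n = 3 each, adjusted p = 0.0886). Plxna2, Plxna4, Plxnb3 and Plxnc1 reached at most 3.9 normalized counts. Plxnc1 is the plexin that binds Sema7a, and it held 4 reads in total in each population.

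Of the netrins only Ntn1 could be compared, and it was higher in T1 cells. It encodes netrin-1, a secreted, laminin-related cue that also acts as a survival factor in epithelia and tumors. It had 612, 634 and 1104 normalized counts in T1 replicates 1, 2 and 3, whereas the T2 libraries held 0, 0 and 1 read. The gene was expressed in every T1 library and close to absent in T2 cells (log2 fold change 9.24, standard error 0.35, adjusted p = 1.68e-08, limma). The scaled ratio of reads was 2415, but with a single T2 read its 95% interval ran from 433 to 95431 (exact binomial, counting error only). The study selected its list of T1 candidate genes from the same libraries, so a place of Ntn1 in that list would not be independent evidence. The other netrins were too low to compare. Ntn3 had 5 reads in all T1 libraries and 35 in all T2 libraries, Ntn4 had 8 and 2, and Ntn5 had none.

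Receptors for netrin were present in both populations, though not all of them. Unc5b, a dependence receptor known from blood vessels, was the most abundant per kilobase, at 651 in T1 and 814 in T2 cells. Its values were 3426, 3941 and 4857 in T1 and 4727, 5776 and 4772 normalized counts in T2 libraries, which overlap (log2 fold change -0.33, adjusted p = 0.0427). Without T1 replicate 3 its adjusted p was 0.00354. Neo1, which encodes neogenin, a receptor for netrins and for repulsive guidance molecules, had 2540, 2628 and 2968 in T1 and 5572, 5612 and 5641 in T2 libraries. It was lower in all T1 libraries (log2 fold change -1.05, standard error 0.08, adjusted p = 1.5e-06). Dcc, the classical netrin receptor, had 2 reads in T1 and 0 in T2 cells, Unc5d had 1 read in T1 cells, and Unc5a and Unc5c had none.

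The Slit and Robo system was represented by a receptor without much ligand. Robo1 had 6.35, 3.72 and 4.88 normalized counts in T1 and 85.2, 79.9 and 117 in T2 libraries, so that all T2 libraries were higher (log2 fold change -3.99, standard error 0.30, adjusted p = 1.8e-06). The scaled ratio of reads was 19.2 (95% interval 11.5 to 34.8, counting error only). Slit2 and Slit3 had no read in any library and Slit1 had 3 reads, all in T2 replicate 2. Robo2 had 2 reads in T2 cells, and Robo3 and Robo4 had none.

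All 8 ephrins could be compared. In T1 cells 3 were lower (37.5%, against 24.4% of all genes), none was higher and none passed both filters (limma). Their fold changes ran from -1.63 to 0.65 on the log2 scale. Efnb1, a transmembrane ephrin that can signal back into its own cell, had 491, 596 and 473 normalized counts in T1 and 1581, 1864 and 1389 in T2 libraries (log2 fold change -1.63, adjusted p = 2.5e-06). Efna1, a lipid-anchored ligand of EphA2, had 630, 544 and 541 in T1 and 1375, 1241 and 1133 in T2 libraries (log2 fold change -1.13, adjusted p = 8.74e-06). Efna4 had 285, 258 and 285 against 661, 477 and 509 (log2 fold change -0.98, adjusted p = 0.00016). In these 3 genes every T1 library was below every T2 library.

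Efnb2, known for marking arterial vessels, was the most abundant ephrin-B in both populations, with 557 per kilobase in T1 and 548 in T2 cells. Its libraries overlapped, with a log2 fold change of 0.02 and a 95% interval of -0.17 to 0.21. Efna5 had 792 ± 21.7 and 886 ± 44.0 (SD, n = 3 each, adjusted p = 0.138), while Efna2, Efna3 and Efnb3 had means of 15.8 to 48.8 normalized counts and no call. Their log2 fold changes were -0.46 (95% interval -1.06 to 0.15), 0.65 (-0.39 to 1.70) and -0.05 (-0.65 to 0.56). The share of Efnb1 in the ephrin-B level per kilobase was 20.9% ± 1.14 in T1 and 45.2% ± 3.09 in T2 cells (SD, n = 3 each).

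Of the 14 Eph receptors 8 could be compared. Epha2, a receptor often abundant in carcinoma cells, was the highest gene of the whole set per kilobase, at 2062 in T1 and 2217 in T2 cells. Its values were 9312, 10121 and 9481 in T1 and 9987, 11195 and 9907 normalized counts in T2 libraries, with a log2 fold change of -0.10 and a 95% interval of -0.27 to 0.07. Its abundance therefore overlapped between populations that differed in other Eph receptors.

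Epha8 and Ephb3 were higher in T1 cells and had few reads in T2 cells. Epha8, best known from the developing midbrain, had 280, 218 and 311 normalized counts in T1 and 10.8, 8.19 and 6.5 in T2 libraries (log2 fold change 4.84, standard error 0.25, adjusted p = 1.27e-07), and its scaled ratio of reads was 31.8 (95% interval 21.5 to 48.9, counting error only). Ephb3, which helps to position epithelial cells in the intestinal crypt, had 152, 162 and 220 in T1 libraries, while the T2 libraries held 2, 0 and 5 reads. Its log2 fold change was 6.11 (standard error 0.54, adjusted p = 5.17e-06) and 5.43 without T2 replicate 2. The scaled ratio of Ephb3 reads was 78.4 (95% interval 37.8 to 196, counting error only). For both genes all T1 libraries were above all T2 libraries.

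Epha1, an epithelial Eph receptor, was higher in T1 cells with 1144, 1071 and 2187 normalized counts against 439, 386 and 496 (log2 fold change 1.66, adjusted p = 0.000132). T1 replicate 3 stood above the other T1 libraries, and without it the log2 fold change was 1.34. Ephb4, the receptor of ephrin-B2 known from veins, went the opposite way, with 1983, 1758 and 2128 in T1 and 4177, 4349 and 3765 in T2 libraries (log2 fold change -1.07, adjusted p = 4.36e-06). It made up 76.9% ± 2.80 of the EphB level per kilobase in T1 and 90.9% ± 0.573 in T2 cells (SD, n = 3 each). Epha4, which binds ephrins of both classes, had 196 ± 39.3 and 312 ± 66.2 (SD, n = 3 each), with an adjusted p of 0.0122 in limma and 0.00195 in DESeq2. Ephb2 (log2 fold change 0.31, adjusted p = 0.0716) and Ephb6 (-0.15, adjusted p = 0.545) overlapped between the populations. The other 6 Eph receptors (Epha3, Epha5, Epha6, Epha7, Epha10 and Ephb1) had no read in any library.

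**Figure D3:**
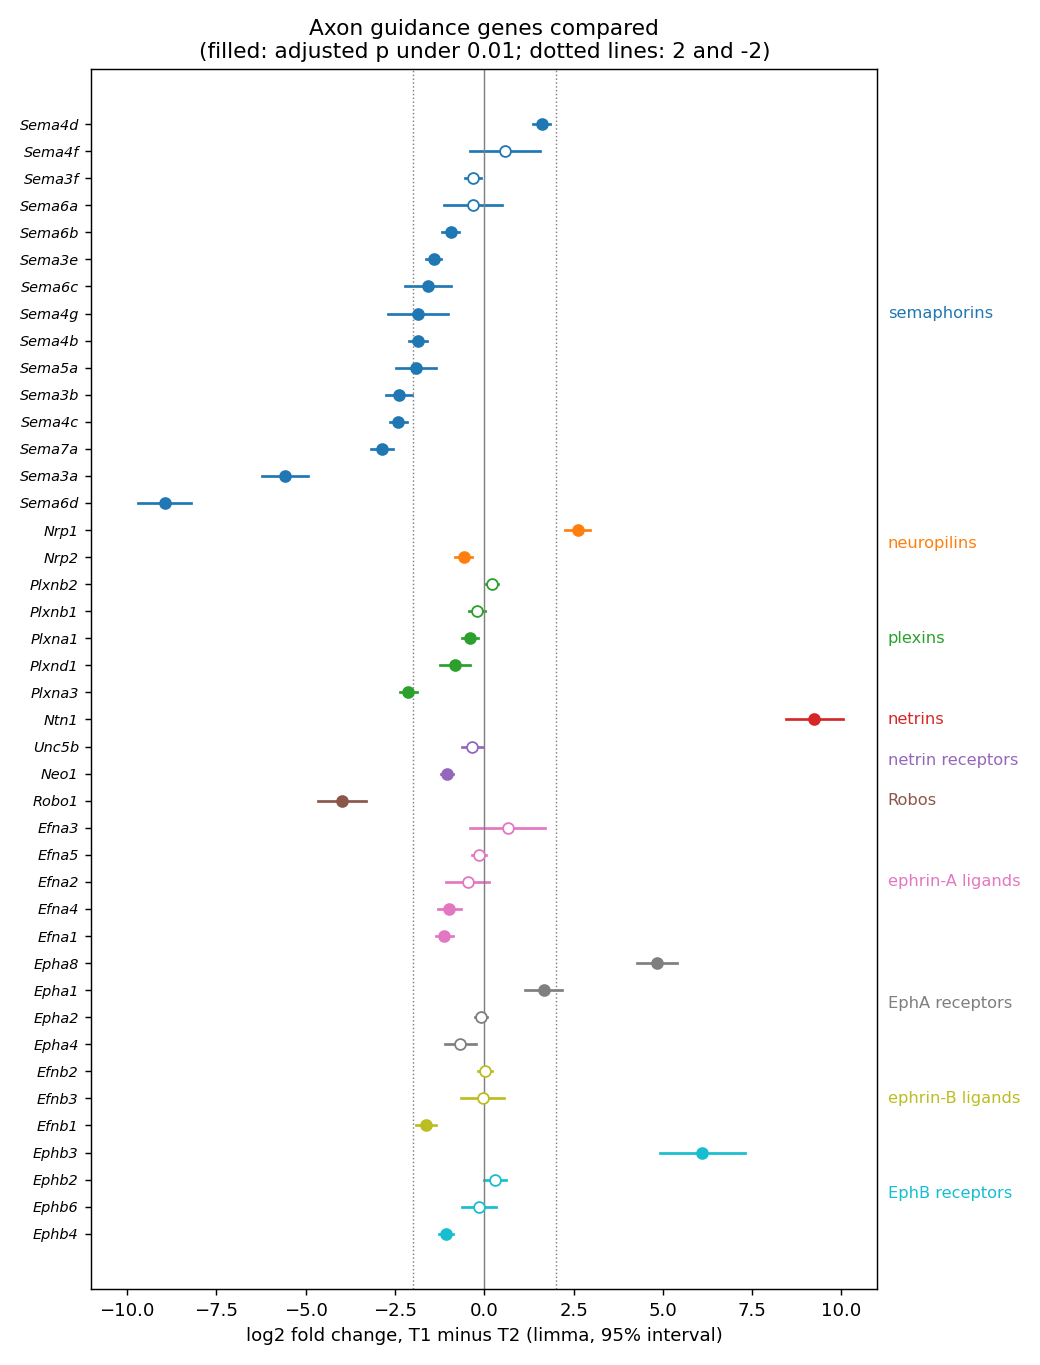
Log2 fold change of the 42 genes compared, T1 minus T2 (horizontal axis), with 95% intervals from limma, grouped and coloured by family. Filled points passed an adjusted p of 0.01 and dotted lines mark 2 and -2. Of the 15 semaphorins 13 lie left of 0, whereas the 8 Eph receptors lie on both sides, 4 each.

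Set side by side as ligands and receptors, 14 of 24 ligands were lower (58.3%) and 2 higher (8.33%) in T1 cells, and of 18 receptors 7 were lower (38.9%) and 4 higher (22.2%), where 24.4% of all genes were lower and 25.1% higher. The difference between ligands and receptors was not tested. The summed level per kilobase of the ephrin-A ligands was 708 ± 33.2 in T1 and 1275 ± 126 in T2 cells, and that of the EphA receptors 2517 ± 150 and 2370 ± 150 (SD, n = 3 each). T1 and T2 libraries overlapped for the EphA sum and not for the ephrin-A sum. For the EphB receptors the sum was 549 ± 61.3 and 971 ± 65.8, without overlap.

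**Figure D4:**
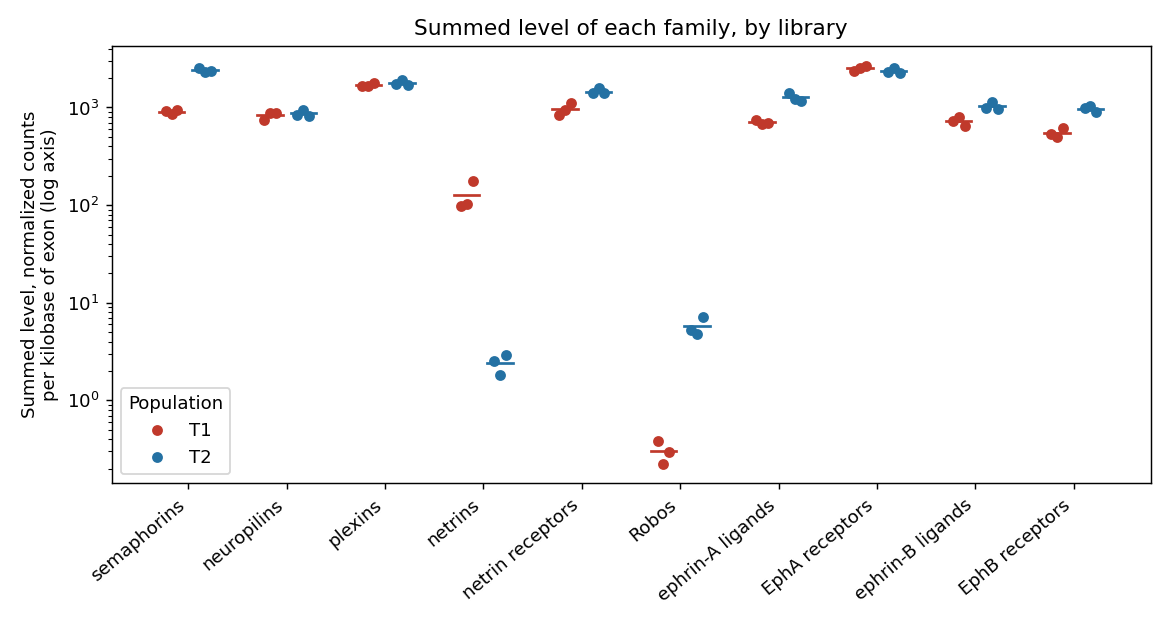
Summed level of each family but the Slits in normalized counts per kilobase of exon (vertical log axis), with 1 point per library (T1 red, T2 blue) and a line at each mean of 3. The netrin sum is 126 in T1 and 2.43 in T2 cells, the Robo sum lies at 0.302 and 5.73, and the sums of neuropilins, plexins and EphA receptors overlap between the populations.

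The bases before an annotated start often hold promoter elements, and they are shown for the 5 genes that were close to silent in a population and have an entry among the RefSeq promoters (build GRCm38.p6). Each line gives the 250 bases before a start, along the strand of the gene. Sema6d has 2 such starts in RefSeq. The starts used for Sema3a and Robo1, and the downstream start of Sema6d, lie far inside the gene spans given above, so by that annotation they are internal starts, and which start these cells used was not measured. Capitals mark the E-box CACCTG or its reverse complement CAGGTG, letters that repressors of epithelial genes such as Snail and Zeb proteins are known to bind.
Ephb3 (chr16:21204545-21204794, plus strand): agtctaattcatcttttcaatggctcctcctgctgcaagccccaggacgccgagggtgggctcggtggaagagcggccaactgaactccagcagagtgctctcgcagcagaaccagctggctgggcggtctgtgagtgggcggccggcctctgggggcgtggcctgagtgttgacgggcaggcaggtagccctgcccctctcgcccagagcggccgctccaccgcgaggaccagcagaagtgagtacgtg
Epha8 (chr4:136956817-136957066, minus strand): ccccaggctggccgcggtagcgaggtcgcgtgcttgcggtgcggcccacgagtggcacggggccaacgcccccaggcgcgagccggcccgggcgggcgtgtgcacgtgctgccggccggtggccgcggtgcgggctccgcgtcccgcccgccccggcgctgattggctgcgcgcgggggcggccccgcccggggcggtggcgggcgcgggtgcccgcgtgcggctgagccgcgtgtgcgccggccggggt
Sema6d, upstream start (chr2:124089719-124089968, plus strand): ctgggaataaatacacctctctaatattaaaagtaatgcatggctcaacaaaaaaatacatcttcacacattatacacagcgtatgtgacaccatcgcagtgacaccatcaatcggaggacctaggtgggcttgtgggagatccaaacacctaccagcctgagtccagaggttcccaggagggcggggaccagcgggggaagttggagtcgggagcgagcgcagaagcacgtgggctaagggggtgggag
Sema6d, downstream start (chr2:124653331-124653580, plus strand): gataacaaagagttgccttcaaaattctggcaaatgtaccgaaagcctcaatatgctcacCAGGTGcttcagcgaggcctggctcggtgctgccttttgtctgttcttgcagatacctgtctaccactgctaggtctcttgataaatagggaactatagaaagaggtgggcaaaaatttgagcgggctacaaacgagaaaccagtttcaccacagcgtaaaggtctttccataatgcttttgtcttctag
Sema3a (chr5:13396534-13396783, plus strand): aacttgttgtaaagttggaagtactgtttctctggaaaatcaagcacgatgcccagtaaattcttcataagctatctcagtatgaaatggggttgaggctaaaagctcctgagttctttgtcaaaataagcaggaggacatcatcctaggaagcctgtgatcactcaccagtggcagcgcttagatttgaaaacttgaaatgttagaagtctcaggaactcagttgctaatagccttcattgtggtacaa
Robo1 (chr16:72662899-72663148, plus strand): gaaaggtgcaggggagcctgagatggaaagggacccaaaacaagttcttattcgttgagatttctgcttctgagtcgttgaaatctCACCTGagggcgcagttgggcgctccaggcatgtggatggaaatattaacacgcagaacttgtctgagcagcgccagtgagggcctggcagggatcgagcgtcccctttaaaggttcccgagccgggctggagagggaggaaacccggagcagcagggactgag
The E-box stood in the windows of Robo1 and of the downstream start of Sema6d, 164 and 190 bases before the start. Both of these genes were lower in T1 cells. Among the other genes compared it stood in a window of Sema4c, lower in T1 cells, and in that of Epha1, higher in T1 cells. It was also in windows of Sema4f, Plxnb2, Efnb2 and Ephb2, which had no call. Of the 46 promoters of the 36 compared genes with an entry, 8 held it (17.4%), and of all 32851 promoters of this length 17.2% did, so the share was near the background. The windows differed in their CpG pairs, with 46 in that of Epha8, 16 in that of Ephb3 and 11 in that of Robo1. Those of Sema6d had 9 and 6 and that of Sema3a had 2. The median was 6 over all promoters and 16 over the 46 promoters of the compared genes. No methylation or binding was measured in these cells.

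Further genes of the pathway were read from lists of other cues and coreceptors and of intracellular mediators. Among 36 other cues and coreceptors 18 could be compared. In T1 cells 10 were lower (55.6%, against 24.4% of all genes) and 4 higher (22.2%, against 25.1%). Their median log2 fold change was -0.77. Past both filters were Flt1, a receptor for vascular growth factors (log2 fold change -3.55), Rgma, a repulsive guidance molecule that binds neogenin (-2.59), and Boc, a coreceptor of hedgehog signalling that also guides axons (-2.21). Rgma had 98.4, 68.8 and 123 normalized counts in T1 and 701, 489 and 541 in T2 libraries, so it was lower in T1 cells together with its receptor gene Neo1.

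Of 48 intracellular mediators 40 could be compared, with 13 lower (32.5%, against 24.4% of all genes), 9 higher (22.5%, against 25.1%) and a median log2 fold change of -0.15. Those past both filters were Ablim1, an actin-binding protein, higher in T1 cells (log2 fold change 3.96, adjusted p = 3.84e-07), and Inpp5d (-6.73), Ngef (-4.26) and Vav3 (-2.23), lower in T1 cells. Ngef encodes ephexin, an exchange factor that acts downstream of EphA receptors, and it had 11.6, 13 and 16.6 normalized counts in T1 and 316, 229 and 296 in T2 libraries. Vav3 is an exchange factor for Rac that is also known downstream of Eph receptors, and Inpp5d is a lipid phosphatase best known from blood cells.

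The 6 libraries held 18133227 to 20839686 reads on genes. Replicates of a population differed by more than counting noise, their chi-square divided by its degrees of freedom being 7.96 to 25. Krt8 and Krt18, keratins of glandular epithelium, were abundant in both populations, whereas the carcinoma markers Epcam, Cdh1, Krt14, Krt19 and Cldn4 were lower in T2 cells and Krt5 had no read. None of 8 endothelial and 9 leukocyte markers had enough reads to be compared, and their summed levels were at most 16.9 normalized counts in every library. Of 10 fibroblast markers 2 could be compared, and they went opposite ways. Pdgfra, which encodes the CD140a antigen of the fibroblast sort, was lower in T1 cells (means of 199 and 1099, log2 fold change -2.45), while Col1a1 was higher (69 reads in T1 and 1 in T2 cells, log2 fold change 4.17, adjusted p = 4.94e-05). Col1a2 had 23 and 0 reads and Acta2 18 and 4, and Col3a1, Lum, Pdgfrb and Thy1 were at 0. The sum of all 10, mostly Pdgfra, was 232 to 246 in T1 and 997 to 1298 in T2 cells. Among neuron and Schwann cell markers, Tubb3 was higher in T1 cells (means of 45.3 and 3.88, log2 fold change 3.23, adjusted p = 1.96e-05), and so was Mbp (735 and 425, log2 fold change 0.79, adjusted p = 7.39e-05), with Rbfox3, Snap25, Syt1 and Sox10 at 0. The part of these markers in the differences above was not tested.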

How the data were processed

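Poly(A) RNA of 3 replicates of T1 cells and 3 of T2 cells was sequenced as paired reads from an unstranded TruSeq V2 library. The authors removed adapters with Trimmomatic, used TopHat2 for alignment to mm10 and HTSeq for counting, and divided counts by DESeq2 size factors. Versions, annotation and strand setting are not given in the sources used here. The deposited signal is thus a read count over 1 size factor per sample, and 100% of values were whole reads (within 0.001 of the read count) after multiplication. No column was left out (0 unused). Of the 24129 names 27 had become dates, none of them a gene reported here.

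On the scale of log2(normalized count + 1), limma 3.58.1 (R 4.3.3) was fitted with a variance trend to genes whose mean reached 10, and p-values were adjusted by Benjamini-Hochberg over all 11514 genes. The cutoffs were those in the methods of the study, an adjusted p below 0.01 and, as second filter, a log2 fold change above 2. The study used them on DESeq2 results, while here they were applied to limma results and the second in either direction. The recovered reads were tested with edgeR 4.0.16 (quasi-likelihood) and DESeq2 1.42.0. An exact permutation test of 3 samples against 3 cannot go below 0.1, so single values were not tested that way. Exonic lengths and overlaps came from GENCODE M21 of the same build, in which all 72 names were found; the annotation the authors counted with may differ. Intervals cover counting error only where so stated.

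The genes and gene lists were chosen with earlier results of these data known. All genes past both filters are given in every library, and the highest gene of each family per kilobase is named. Other compared genes are given by fold change or, for Sema3f, Plxnb1, Efna5 and Epha4, by mean and SD. Genes of the other lists past both filters are named. Alternatives covered the pseudocount (0.5 and 5), the low-value filter (none or 50), quantile and total scaling, limma without trend, wider thresholds (0.05 and 1), edgeR, DESeq2, a replicate block and each library left out. A gene of the neuron and Schwann cell list, and the sum that holds it, are not reported here. Plots were made in Python 3.11.15 with matplotlib 3.10.9.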

Additional observations from a re-analysis of the deposited data

How the results depend on the processing

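Under the alternatives, 6 or 7 genes were higher and 18 to 24 lower in T1 cells at the adjusted p threshold. That threshold was 0.01, or 0.05 with the wider thresholds. The count higher past both filters was 4 throughout, except for 6 with the wider thresholds. The count lower past both filters was 7, moved to 16 with the wider thresholds (adjusted p under 0.05 and log2 fold change above 1), and lay between 6 and 8 elsewhere. With each library left out it ran from 7 to 8, and the count lower at an adjusted p under 0.01 ran from 18 to 22. The replicate numbers were not taken as pairs. Deviations of same-numbered libraries correlated at 0.0575, 0.172 and 0.104, and those of differently numbered libraries at -0.152 to 0.0719. These values do not settle whether the numbers mark pairs. A fit with the replicate block gave 22 lower genes in place of 21. Of 664 fold changes of single genes under an alternative, 642 kept their direction and side of the threshold, 12 no longer passed it, 4 newly passed it and 6 changed sign. All sign changes were in Efnb2 and Efnb3, which had no call: with libraries left out in turn Efnb2 ran from -0.044 to 0.097 and Efnb3 from -0.21 to 0.16, and Efnb3 was 0.0044 under quantile normalization. The cause was not tested. Fold changes of genes near 0 in a population depend on the pseudocount: with 5 in place of 1, the log2 fold change of Ntn1 was 7.16, of Ephb3 4.70, of Sema6d -8.22, of Sema3a -4.79 and of Robo1 -3.30. In edgeR that of Ntn1 was 10.77. Sema4g passed both filters in edgeR (-2.05) and DESeq2 (-2.06).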

Other observations

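T1 replicate 3 held the highest of the T1 values for 24 of the 42 genes compared, against 11 for T1 replicate 1 and 7 for T1 replicate 2. Among them were Ntn1, Epha1, Epha8, Ephb2, Ephb3, Unc5b and Nrp2, while Nrp1 was lowest in that library. In T2 cells the corresponding numbers were 13, 18 and 11. No such count over all genes compared is given here, so these numbers may not be particular to guidance genes. The chi-square divided by its degrees of freedom was 23.3 between T1 replicates 1 and 3. It was 25 between T1 replicates 2 and 3, and 7.96 between T1 replicates 1 and 2. Whether the counts follow a difference between whole libraries was not tested.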
